A study of Homo sapiens with 18 samples.

Results

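The genes that mark the contractile, activated state of the hepatic stellate cell were followed by symbol through the deposited tables. They were 10 of the 35579 distinct gene identifiers: ACTA2, TAGLN, CNN1, MYL9, TPM1 and TPM2 of the contractile apparatus, PDGFRA, PDGFRB and THY1 of the cell surface, and the intermediate filament gene DES. Of the 10, 9 were in the LX-2 table, 10 in the LV5 table and 7 in the SW480-LM3 table. DES in LX-2, and CNN1, PDGFRA and THY1 in SW480-LM3, were not analysed here. RNA sequencing of oligo(dT)-selected RNA covered 18 libraries of 2 human cell lines, in 6 groups of 3 (n = 3 throughout).

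EV-XP-NID1-LX-2 was LX-2, an immortalized human hepatic stellate cell line, incubated for 48 hours with extracellular vesicles that contain NID1 (nidogen 1, a basement membrane glycoprotein), and EV-XP-LX-2 was the same line incubated for 48 hours with control vesicles. LV5-NID1 was SW480, a human colon cancer line, made to overexpress NID1 and kept in GW4869, a blocker of vesicle release, for 72 hours, and LV5 was its control. Whether LV5 also received GW4869 is not stated in the labels. SW480-LM3 came from SW480 through 3 rounds of selection in which cells were injected into the spleen, and SW480-P was the parental line. The letters XP are unexplained, and no label says that the 3 libraries of a group came from separate cultures, so the p-values below measure no more than how these libraries vary, which may be technical variation.

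Quiescent stellate cells store retinoids between the hepatocytes and the sinusoid. On activation they become myofibroblasts, which lay down collagen and assemble stress fibres from smooth muscle actin, tropomyosin, calponin, transgelin and myosin, while growth factor receptors for PDGF drive their proliferation and migration. Many of the contractile genes are known targets of serum response factor (SRF), which binds the CArG box and is switched on by its cofactors of the myocardin family when actin polymerizes.

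The promoters of ACTA2, PDGFRA and PDGFRB are shown because the LX-2 results turn on them: the smooth muscle actin gene, whose level was low beside most of the other contractile genes, and the PDGF receptor genes, which were called in opposite directions. The sequences are from RefSeq (GRCh38.p14), 5′ to 3′ on the gene's own strand, and cover the bases before the start of transcription that lie outside annotated exons. The table gives 2 starts each for ACTA2 and PDGFRA, and the one shown is the one with all 250 bases outside exons. At the other ACTA2 start, GC boxes begin 47 and 36 bases before it and no CArG-like box was matched, and at the other PDGFRA start none of the motifs searched was matched. Capitals mark motif matches. In ACTA2 (minus strand, chr10:88952774-88953023) they are an MCAT element (CATTCC, here on the other strand as GGAATG) that begins 183 bases before the start, and 2 CArG-like boxes that begin 121 and 71 bases before it. In PDGFRA (plus strand, chr4:54233710-54233959) they are a GC box (GGGCGG) at 139 bases before the start, a CCAAT box at 74 and a GC box at 27. In PDGFRB (minus strand, chr5:150155873-150156095) they are a GC box on the other strand at 118 bases and a CCAAT box at 94.
ACTA2: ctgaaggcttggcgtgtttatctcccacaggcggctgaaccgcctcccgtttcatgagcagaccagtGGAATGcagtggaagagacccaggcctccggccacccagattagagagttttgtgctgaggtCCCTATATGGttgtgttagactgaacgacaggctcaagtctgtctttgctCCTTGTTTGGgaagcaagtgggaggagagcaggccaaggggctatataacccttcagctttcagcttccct
PDGFRA: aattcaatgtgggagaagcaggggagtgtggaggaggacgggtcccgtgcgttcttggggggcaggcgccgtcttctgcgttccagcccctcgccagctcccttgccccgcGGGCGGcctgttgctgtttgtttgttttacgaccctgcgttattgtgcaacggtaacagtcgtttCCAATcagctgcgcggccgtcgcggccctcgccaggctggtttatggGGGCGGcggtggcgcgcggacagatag
PDGFRB: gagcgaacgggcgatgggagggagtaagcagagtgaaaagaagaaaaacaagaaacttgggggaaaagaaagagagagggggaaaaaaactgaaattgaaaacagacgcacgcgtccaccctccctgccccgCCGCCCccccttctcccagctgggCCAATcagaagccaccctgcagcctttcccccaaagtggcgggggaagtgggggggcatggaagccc

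Promoter entries were matched for 6 of the 10 genes (ACTA2, CNN1, TPM1, TPM2, PDGFRA and PDGFRB). TAGLN, MYL9, THY1 and DES are named only. A CArG-like box was searched on both strands as CC, then 6 bases of which at least 5 are A or T, then GG; 7.04% of the 35116 promoters in the table held one in the 250 bases before the start, and 1.16% held a CArG box with A or T at every inner base. The MCAT element was in 11.89% of them, the CCAAT box in 32.01% and the GC box in 42.64%. ACTA2, at the start shown, was the gene with CArG-like boxes among the 6, and none of the 6 held the strict form in this window. A match describes letters and is not a measured binding site.

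A few facts of the libraries bear on what follows. The SW480-LM3 table holds a signal that is a read count divided by 1 factor per library, from 15504205 to 18965163 reads per library, and it is not scaled by gene length. The LX-2 and LV5 tables hold TPM, a level scaled by gene length and library total (not to be confused with the tropomyosin genes TPM1 to TPM4), and the depth behind them is unknown. In LV5-NID1, where it checks the overexpression label, NID1 was at 348, 352 and 379 TPM, against 0.00, 0.04 and 0.02 TPM in LV5. In SW480-LM3 NID1 was at 44.7, 49.1 and 46.9 signal, against 0.57, 0.58 and 0.35 in SW480-P. NID1 was at 21.7, 18.02 and 22.6 TPM in EV-XP-NID1-LX-2, against 25.1, 25.1 and 26.0 TPM in EV-XP-LX-2. Those LX-2 values are RNA of the cells that received the vesicles, so they cannot check what the vesicles contain. The SW480-LM3 libraries stand apart from their label: over 14744 genes the group mean of SW480-LM3 ranked with that of LV5, another SW480 culture, at a Spearman rank correlation of 0.694 and with that of EV-XP-LX-2 at 0.713, whereas SW480-P reached 0.886 with LV5 and 0.794 with EV-XP-LX-2. Selection and an origin in another line cannot be told apart. Reads of ACTA2 and its close actin relatives, and of MYL9 and its relatives MYL12A and MYL12B, can be split between copies by the counting, which is not given in the sources used here.

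The LX-2 libraries carried the label's cell type in part. Collagen genes and vimentin were present, with VIM at 1341 ± 127 TPM in EV-XP-NID1-LX-2 and 1887 ± 80.8 TPM in EV-XP-LX-2 (SD, n = 3). LRAT, the retinoid storage enzyme of the quiescent stellate cell, was at or under a mean of 0.01 TPM in both groups. GFAP averaged 0.22 TPM with NID1 vesicles and 0.29 TPM with control vesicles, and HGF 0.36 TPM in each group. Of the 15 stellate markers, 9 averaged 1 TPM or more with NID1 vesicles and 8 with control vesicles, LUM and LHX2 among them. MYH11, the smooth muscle myosin heavy chain, was at 0.10 to 0.15 TPM with NID1 vesicles and 0.09 to 0.16 TPM with control vesicles. Of the markers of other cells, ALB, PTPRC, CDH5, EPCAM and CDH1 each averaged under 0.31 TPM in both groups, but others were well above that. The keratins averaged 185 TPM (KRT18) and 35.4 TPM (KRT8) with NID1 vesicles, against 199 and 54.8 TPM with control vesicles. CD68 averaged 18.6 TPM with NID1 vesicles and 43.7 TPM with control vesicles, SERPINA1 13.3 TPM with NID1 vesicles and 21.0 TPM with control vesicles, and TEK 5.83 TPM with NID1 vesicles and 12.4 TPM with control vesicles.

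In LX-2 given NID1 vesicles, PDGFRB, TPM1 and CNN1 were lower than with control vesicles, PDGFRA was higher, and ACTA2, TAGLN, MYL9, TPM2 and THY1 did not pass the test. The largest of these differences was in PDGFRB, the receptor for PDGF-BB, which fell to 6.15 ± 0.04 TPM with NID1 vesicles, against 10.8 ± 0.74 TPM with control vesicles. Each gene was tested with limma on log2(TPM + 1), among 15802 genes at 1 TPM or more in at least 3 libraries, and counted as called where its p, adjusted over all genes (Benjamini-Hochberg), was under 0.05. Of the 9 genes 1 was called higher and 3 lower, beside 42.3% of all genes called, 17.8% higher and 24.6% lower. The share of the myofibroblast genes that was called is therefore near that of all genes. Their median log2 fold change was -0.14, beside -0.05 over all genes tested. In bulk RNA, fewer cells that express a gene and less of its RNA per cell cannot be told apart.

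The levels per library (the plot of TPM by gene) span from a few TPM for the PDGF receptors to more than 300 TPM for the tropomyosins. With NID1 vesicles the order of mean levels was TPM1, TPM2, TAGLN, MYL9, THY1, ACTA2, CNN1, PDGFRB and PDGFRA. With control vesicles the order was the same except that PDGFRB stood above CNN1. Within each group, the ranges of neighbours in this order did not overlap. TPM is scaled by length, so these orders compare genes, but they rest on the authors' assignment of reads to genes.

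**Figure D1:**
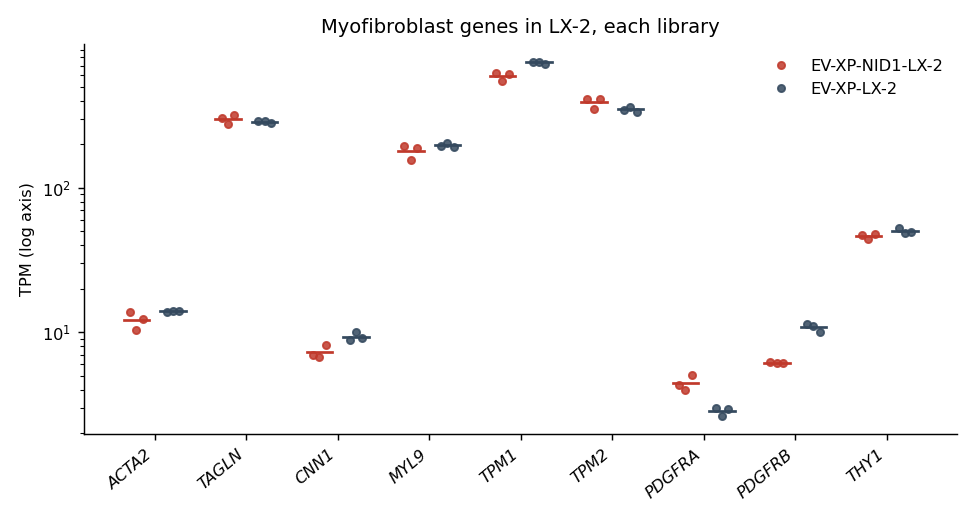
TPM (log axis) of 9 myofibroblast genes in LX-2; each point is a library, EV-XP-NID1-LX-2 in red and EV-XP-LX-2 in blue, and bars are group means. The groups stand apart for CNN1, TPM1, PDGFRA, PDGFRB and narrowly for THY1, and overlap for ACTA2, TAGLN, MYL9 and TPM2. Groups did not overlap for 55.9% of all genes tested, so standing apart sets no gene apart from the rest.

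Smooth muscle alpha actin, the product of ACTA2, is the classical marker of the myofibroblast. ACTA2 (ENSG00000107796, minus strand of chromosome 10, 88935074 to 88991339, GRCh38, GENCODE 29) was at 13.9, 10.3 and 12.4 TPM with NID1 vesicles, against 13.8, 14.1 and 14.2 TPM with control vesicles. The groups overlapped through EV-XP-NID1-LX-2 replicate 1, which lay within the control range. The log2 fold change was -0.20 with a 95% interval of -0.44 to 0.05 (limma adjusted p = 0.171). ACTA2 was a minor actin here: of the summed TPM of ACTA2, ACTB and ACTG1, the cytoplasmic actins being the other two, it was 0.251% with NID1 vesicles and 0.278% with control vesicles (exact two-sided permutation p = 0.1, the smallest possible here), and the nearest libraries were at 0.2672% with NID1 vesicles and 0.2675% with control vesicles. Of its exon bases, 17.34% are shared with the antisense gene ACTA2-AS1 and 12.77% with FAS on the other strand, and whether the counting used strand is not given in the sources used here. FAS was at 6.30 TPM with NID1 vesicles and 7.26 TPM with control vesicles. ACTG2, the other smooth muscle actin gene, is not in the actin sum above and was named after its values were seen. It was at 15.63, 14.35 and 17.82 TPM with NID1 vesicles, against 24.98, 17.84 and 21.37 TPM with control vesicles.

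Transgelin (SM22 alpha), an actin-binding protein of smooth muscle and a known SRF target, showed no call. TAGLN (ENSG00000149591, plus strand of chromosome 11, 117199321 to 117204782) was at 305, 278 and 317 TPM with NID1 vesicles, against 289, 289 and 281 TPM with control vesicles. Of the exon bases of TAGLN, 11.39% are shared with PCSK7 on the other strand. PCSK7 averaged 33.1 TPM with NID1 vesicles and 37.2 TPM with control vesicles, and its part in the TAGLN values was not tested. For TAGLN, the NID1 vesicle libraries lay on both sides of the controls. The log2 fold change was 0.07 (95% interval -0.07 to 0.20, limma adjusted p = 0.392). It was 0.12 without EV-XP-NID1-LX-2 replicate 2 (adjusted p = 0.023) and 0.12 with median-ratio scaling (adjusted p = 0.0275), both past the threshold. With quantile normalization it was -0.04 (adjusted p = 0.64), so its sign and its call depended on the scaling.

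Calponin 1 is an actin-binding inhibitor of the myosin ATPase that is typical of smooth muscle. CNN1 (ENSG00000130176, plus strand of chromosome 19, 11538717 to 11550323) was at 6.92, 6.74 and 8.15 TPM with NID1 vesicles, against 8.91, 10 and 9.06 TPM with control vesicles. Every NID1 vesicle library was below every control library, and groups did not overlap for 55.9% of all genes tested. The log2 fold change was -0.32 (SE 0.096, limma adjusted p = 0.0313), a ratio of means of 0.78. The call was fragile: leaving out any library but EV-XP-NID1-LX-2 replicate 3 gave adjusted p from 0.0624 to 0.104, and quantile normalization (0.088), no filter on low values (0.07) and a replicate block (0.0605) also ended it.

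MYL9 encodes the regulatory light chain of smooth muscle and non-muscle myosin, whose phosphorylation starts contraction. MYL9 (ENSG00000101335, plus strand of chromosome 20, 36541484 to 36551447) was at 196, 155 and 188 TPM with NID1 vesicles, against 194, 204 and 191 TPM with control vesicles. The groups overlapped, and the lowest value belonged to EV-XP-NID1-LX-2 replicate 2. A limma fit gave a log2 fold change of -0.14 with a 95% interval of -0.34 to 0.07 (limma adjusted p = 0.246).

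Tropomyosins lie along actin filaments and control the access of myosin and of severing proteins. TPM1 (ENSG00000140416, plus strand of chromosome 15, 63042632 to 63071915) was the most abundant of the genes, at 623, 545 and 617 TPM with NID1 vesicles, against 747, 744 and 725 TPM with control vesicles. Every NID1 vesicle library was below every control library, and groups did not overlap for 55.9% of all genes tested. TPM1 fell by 0.31 on the log2 scale (SE 0.059, limma adjusted p = 0.00533), and the call held under all 15 alternatives with adjusted p from 0.001 to 0.0251. An antisense gene, TPM1-AS, shares 16.08% of the exon bases of TPM1 and was itself lower, at 1.92 ± 0.48 TPM with NID1 vesicles and 5.91 ± 1.06 TPM with control vesicles (limma adjusted p = 0.00139). It was named after its values were seen. Its level is a small fraction of that of TPM1 in both groups, and its part in the TPM1 values was not tested.

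TPM2 (ENSG00000198467, minus strand of chromosome 9, 35681992 to 35690121), which encodes beta tropomyosin, was at 414, 349 and 415 TPM with NID1 vesicles, against 346, 365 and 336 TPM with control vesicles. EV-XP-NID1-LX-2 replicates 1 and 3 were above every control library, and replicate 2 lay within the control range. Its fitted difference was 0.17 on the log2 scale, with a 95% interval of -0.01 to 0.34 (limma adjusted p = 0.117). Without replicate 2 of EV-XP-NID1-LX-2 it was 0.25 (adjusted p = 0.00483), and with median-ratio scaling 0.22 (adjusted p = 0.0121), both past the threshold. That library was the lowest of its group for ACTA2, TAGLN, CNN1, MYL9, TPM1 and TPM2.

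The summed level of the 6 contractile genes was 1345 to 1558 TPM with NID1 vesicles and 1556 to 1627 TPM with control vesicles. The fold changes differ in sign among the 6, and the plot of fold changes shows them with their intervals.

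**Figure D2:**
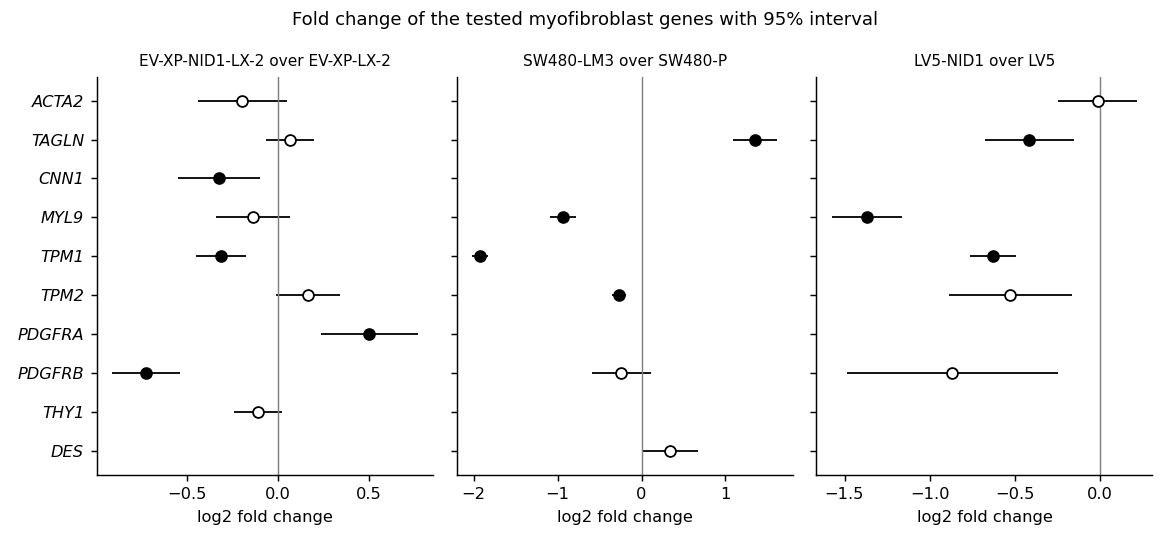
Log2 fold change (limma, log2 of value + 1) with 95% interval for each tested gene in EV-XP-NID1-LX-2 over EV-XP-LX-2, SW480-LM3 over SW480-P and LV5-NID1 over LV5; filled points passed an adjusted p under 0.05, and each panel has its own axis. TPM1 lies below 0 in all 3 panels (-0.31, -1.93 and -0.63), and TAGLN is on different sides of 0 (0.07, 1.36 and -0.41).

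Beyond the sum, the mean shares of the tropomyosin genes differed between the LX-2 groups. TPM1 made 28.97% of the summed TPM of TPM1, TPM2, TPM3 and TPM4 with NID1 vesicles and 32.5% with control vesicles, and TPM4 made 30.3% with NID1 vesicles and 34.1% with control vesicles. TPM2 made 19.1% with NID1 vesicles and 15.3% with control vesicles, and TPM3 21.6% with NID1 vesicles and 18.1% with control vesicles. None of these 4 shares overlapped between groups, EV-XP-NID1-LX-2 replicate 2 included: its TPM1 share was 28.95%, beside 29.03% and 28.92% in the other libraries of its group. The levels of 55.9% of all genes tested did not overlap either. The 4 shares add up to the whole, so they are not separate results. An exact two-sided permutation test gave p = 0.1 for each, the smallest that 3 libraries against 3 can give, so the design could not reach 0.05. A share does not depend on the scaling of a library, but it shows unequal change and not which gene moved. TPM4 itself passed the test, at 622 ± 51.9 TPM with NID1 vesicles and 775 ± 7.17 TPM with control vesicles (log2 fold change -0.32, limma adjusted p = 0.00704).

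Shares in the other contractile families are given in the same way. CNN1 made 1.78% of the 3 calponin genes with NID1 vesicles and 2.29% with control vesicles. TAGLN made 31.7% of TAGLN plus TAGLN2 with NID1 vesicles and 32.8% with control vesicles. Those groups did not overlap, as for the levels of 55.9% of all genes tested (exact two-sided permutation p = 0.1 for both shares). MYL9 made 7.23% of MYL9, MYL12A and MYL12B with NID1 vesicles and 7.10% with control vesicles, and there the groups overlapped (exact two-sided permutation p = 0.9).

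**Figure D3:**
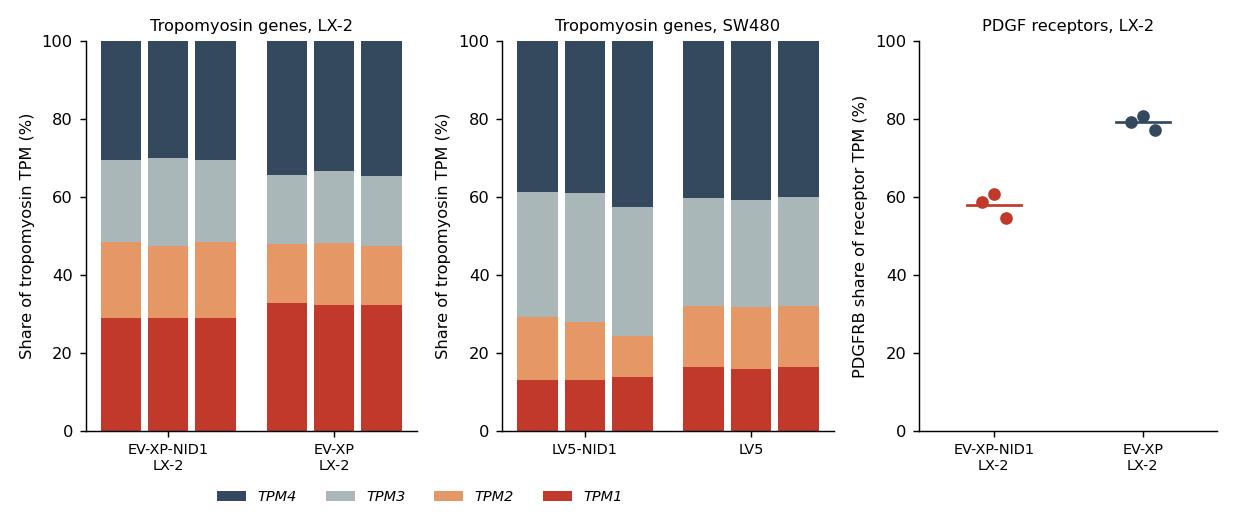
Stacked bars give the share (%) of TPM1 to TPM4 in their summed TPM, 1 bar per library, in LX-2 (left) and SW480 LV5 (middle); points at right give PDGFRB as a share (%) of PDGFRA plus PDGFRB in LX-2, with group means as lines. TPM1 is at 28.92 to 29.03% with NID1 vesicles and 32.3 to 32.8% with control vesicles, and PDGFRB at 54.6 to 60.8% with NID1 vesicles and 77.2 to 80.9% with control vesicles.

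Among the surface genes, the PDGF receptors were called in opposite directions. PDGFRB (ENSG00000113721, minus strand of chromosome 5, 150113837 to 150155872), the main PDGF receptor of activated stellate cells and pericytes, was at 6.19, 6.15 and 6.11 TPM with NID1 vesicles, against 11.4, 11.1 and 10.01 TPM with control vesicles. The NID1 vesicle libraries lay within 0.1 TPM of each other and far below every control. Groups did not overlap for 55.9% of all genes tested. The log2 fold change was -0.73 (SE 0.080, limma adjusted p = 0.000766), a ratio of means of 0.567, and all 15 alternatives kept the call, with log2 fold changes from -0.81 to -0.51. This fall lies just beyond the 5th percentile of all genes tested, at -0.72.

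PDGFRA (ENSG00000134853, plus strand of chromosome 4, 54229097 to 54298247), the receptor that also binds PDGF-AA and PDGF-CC, was at 4.35, 3.97 and 5.08 TPM with NID1 vesicles, against 2.97, 2.62 and 2.95 TPM with control vesicles. Every NID1 vesicle library was above every control, at low levels throughout, and groups did not overlap for 55.9% of all genes tested. The log2 fold change was 0.50 (SE 0.11, limma adjusted p = 0.0109). The ratio of means was 1.57, and the 1 TPM added before the log compresses fold changes of genes as low as this. The call held under all 14 alternatives that tested the gene, and a filter at a mean of 5 TPM removed it. PDGFRA shares 15.75% of its exon bases with AC058822.1, a protein-coding gene on the same strand. No level of AC058822.1 was given, and its part in the PDGFRA values was not tested. Of the summed TPM of both receptors, PDGFRB made 58.0 ± 3.1% with NID1 vesicles and 79.2 ± 1.8% with control vesicles (exact two-sided permutation p = 0.1).

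THY1 (CD90), a GPI-anchored glycoprotein of fibroblasts, is encoded on the minus strand of chromosome 11 (ENSG00000154096, 119417378 to 119424985). It was at 47.5, 44.1 and 48.2 TPM with NID1 vesicles, against 52.4, 48.9 and 49.6 TPM with control vesicles. The groups did not overlap, as for 55.9% of all genes tested, but the gap was under 1 TPM. A log2 fold change of -0.11, with a 95% interval of -0.24 to 0.02, did not pass (limma adjusted p = 0.159). THY1 shares 10.67% of its exon bases with AP003396.5 on the other strand. AP003396.5 averaged 14.3 TPM with NID1 vesicles and 16.4 TPM with control vesicles, and its part in the THY1 values was not tested.

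Related genes were called in both directions in LX-2, in shares to be read beside the 17.8% of all genes called higher and 24.6% called lower. Of 13 tested paralogs of the contractile genes, 1 was higher and 5 were lower, with a median log2 fold change of -0.11 beside -0.05 for all genes. One of the 5, ACTC1, cardiac actin, averaged 0.543 ± 0.275 TPM with NID1 vesicles and 2.01 ± 0.445 TPM with control vesicles; it passed the filter on low values through the control libraries alone, so its call carries no weight. The cytoplasmic actins were not called: ACTB averaged 2393 ± 269 TPM with NID1 vesicles and 2811 ± 90.3 TPM with control vesicles (adjusted p = 0.057), and ACTG1 averaged 2427 ± 235 TPM with NID1 vesicles and 2216 ± 20.0 TPM with control vesicles (adjusted p = 0.203). ACTB was called in 5 of the 15 alternatives and ACTG1 in 2.

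Of 15 tested genes of the smooth muscle apparatus outside the 10, 2 were higher and 5 lower (median log2 fold change -0.15). SYNM, the intermediate filament protein synemin that links filaments to adhesion sites, rose to 13.1 ± 0.77 TPM with NID1 vesicles, against 7.05 ± 0.35 TPM with control vesicles (log2 fold change 0.80, limma adjusted p = 0.00054). PDLIM7, a PDZ and LIM domain protein of actin stress fibres, fell to 73.2 ± 10.6 TPM, against 164 ± 4.12 TPM with control vesicles (log2 fold change -1.16, limma adjusted p = 0.000377). FLNA, an actin crosslinker, and CSRP1, a LIM protein of smooth muscle, were the most abundant and were not called, at log2 fold changes of -0.15 and -0.18. MYLK and CALD1, which encode the kinase that phosphorylates the myosin light chain and the actin-bound caldesmon, were chosen after their values were seen. MYLK averaged 26.9 ± 2.60 TPM with NID1 vesicles and 54.2 ± 9.83 TPM with control vesicles (log2 fold change -0.97, limma adjusted p = 0.00139), and CALD1 averaged 52.8 ± 4.67 TPM with NID1 vesicles and 84.7 ± 2.72 TPM with control vesicles (log2 fold change -0.68, limma adjusted p = 0.000646).

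Of 13 tested genes of the SRF axis and its upstream actin regulators, 1 was higher and 3 lower (median 0.03). PPP1R14A, an inhibitor of myosin phosphatase, fell to 3.61 ± 1.45 TPM with NID1 vesicles, against 7.78 ± 0.919 TPM with control vesicles (log2 fold change -0.97, limma adjusted p = 0.00941). LIMK1, the kinase that inactivates cofilin, fell to 27.1 ± 3.60 TPM, against 38.8 ± 0.73 TPM with control vesicles (log2 fold change -0.51, limma adjusted p = 0.00527). RHOA and CFL1, the GTPase and cofilin, were the most abundant and were not called (log2 fold changes -0.10 and 0.10). The 1 gene called higher, named after its value was seen, was SRF itself, at 44.0, 35.6 and 41.4 TPM with NID1 vesicles, against 31.0, 32.4 and 33.0 TPM with control vesicles (log2 fold change 0.31, limma adjusted p = 0.0189). Of 7 tested early targets of SRF, 3 were higher and 1 lower, SRF being among the 3. FOSB was higher, at 5.81 ± 0.47 TPM with NID1 vesicles and 3.13 ± 0.14 TPM with control vesicles (limma adjusted p = 0.00152), and EGR1 was lower, at 67.0 ± 5.88 TPM with NID1 vesicles and 87.5 ± 4.75 TPM with control vesicles (limma adjusted p = 0.00621). VCL, vinculin, was not called (log2 fold change 0.03, and -0.01 when mitochondrially encoded genes were left out of the scaling).

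Of 12 tested PDGF ligands and signalling partners, 2 were higher and 1 lower (median 0.07). SHC1, an adaptor of the activated receptor, fell to 53.2 ± 4.42 TPM with NID1 vesicles, against 69.3 ± 0.70 TPM with control vesicles (limma adjusted p = 0.0039). GRB2, the adaptor that links receptors to RAS, rose to 98.0 ± 5.45 TPM, against 83.3 ± 1.37 TPM with control vesicles (limma adjusted p = 0.0119). The phosphatase PTPN11 (log2 fold change 0.12) and the phospholipase PLCG1 (-0.01) were not called, and the sign of PLCG1 changed with median-ratio scaling (0.05).

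Of 11 tested mesenchymal surface genes that could be read beside THY1, 1 was higher and 8 lower (median -0.30). CSPG4 (NG2), a proteoglycan of pericytes, fell to 27.7 ± 3.33 TPM with NID1 vesicles, against 44.4 ± 0.37 TPM with control vesicles (log2 fold change -0.67, limma adjusted p = 0.00125). ITGB1, the beta 1 integrin chain, fell to 528 ± 26.0 TPM, against 671 ± 8.96 TPM with control vesicles (limma adjusted p = 0.0017), and CD44, the hyaluronan receptor, averaged 450.4 ± 26.1 TPM with NID1 vesicles and 528 ± 15.6 TPM with control vesicles (limma adjusted p = 0.0132). NGFR, the p75 neurotrophin receptor of stellate cells, was higher, at 9.69 ± 0.193 TPM with NID1 vesicles and 4.61 ± 0.41 TPM with control vesicles (log2 fold change 0.93, limma adjusted p = 0.000469).

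Of 8 tested genes in the list of stellate markers, 1 was higher (NGFR) and 3 lower: COL3A1 at 13.8 ± 2.14 TPM with NID1 vesicles and 27.3 ± 2.43 TPM with control vesicles, COL1A1 at 161 ± 20.9 TPM with NID1 vesicles and 203 ± 4.16 TPM with control vesicles, and VIM. The summed stellate markers were 1400 to 1665 TPM with NID1 vesicles and 2065 to 2237 TPM with control vesicles. Sums of markers of other cell types were lower too. Hepatocyte markers summed to 13.3 to 14.2 TPM with NID1 vesicles and 20.8 to 22.3 TPM with control vesicles. SERPINA1 was the 1 gene at a mean of 1 TPM or more in either group, of the 4 that had values. Endothelial markers summed to 6.97 to 7.45 TPM with NID1 vesicles and 12.3 to 14.5 TPM with control vesicles, mostly TEK. Leukocyte markers summed to 17.0 to 23.5 TPM with NID1 vesicles and 44.3 to 48.2 TPM with control vesicles, mostly CD68. Of the 5 leukocyte genes that had values, 2 averaged 1 TPM or more. Epithelial markers summed to 199.7 to 232 TPM with NID1 vesicles and 248 to 261 TPM with control vesicles. KRT8 and KRT18 alone reached 1 TPM, of the 6 epithelial genes that had values. The part of these markers in the results for the myofibroblast genes was not tested.

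**Figure D4:**
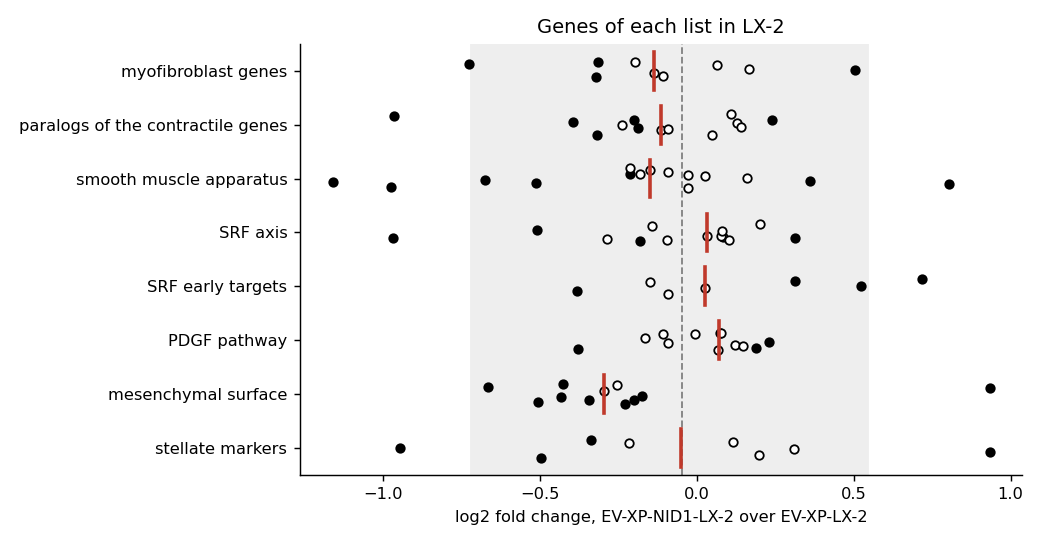
Log2 fold change of EV-XP-NID1-LX-2 over EV-XP-LX-2 for the tested genes of the 8 lists drawn, 1 point per gene, filled where the adjusted p was under 0.05; red lines are list medians, the dashed line is the median of all genes (-0.05), and the grey band runs from their 5th to their 95th percentile (-0.72 to 0.54). Markers of other cell types are not drawn. The mesenchymal surface list has the lowest median of the 8 (-0.30), and the myofibroblast genes lie around -0.14.

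In SW480, 6 of the 10 genes in the LV5 table could be tested, and the contractile ones that passed were lower in LV5-NID1. MYL9 fell to 52.4 ± 5.47 TPM in LV5-NID1, against 136 ± 4.64 TPM in LV5, and TPM1 fell to 151 ± 8.61 TPM, against 233 ± 5.06 TPM in LV5. Of the 6, 0 were called higher by limma and 3 lower (0 and 5 at an unadjusted p under 0.05), beside 16.6% of 15508 genes called, 7.27% higher and 9.32% lower. Their median log2 fold change was -0.58, beside 0.006 over all genes. NID1 overexpression and GW4869 exposure cannot be told apart here as far as the labels go.

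MYL9 was at 56.0, 55.0 and 46.1 TPM in LV5-NID1, against 131, 139 and 139 TPM in LV5. The groups were far apart, with a log2 fold change of -1.37 (SE 0.085, limma adjusted p = 0.000976). TPM1 was at 146, 146 and 161 TPM in LV5-NID1, against 234, 227 and 237 TPM in LV5, a log2 fold change of -0.63 (SE 0.055, limma adjusted p = 0.00247). Both calls held under all 15 alternatives. TPM2 was at 184, 169 and 123 TPM in LV5-NID1, against 221, 228 and 226 TPM in LV5. The groups did not overlap, as for 43.3% of all genes, but LV5-NID1 spread widely and the gene was not called (log2 fold change -0.53, limma adjusted p = 0.0604; without LV5-NID1 replicate 3 it was -0.35 and called at 0.00781, and without replicate 1 it was -0.64 and called at 0.0468).

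TAGLN was at 7.92, 7.78 and 6.38 TPM in LV5-NID1, against 9.77, 9.44 and 11.1 TPM in LV5. The groups did not overlap, as for 43.3% of all genes tested, and the log2 fold change of -0.41 passed narrowly (limma adjusted p = 0.0486). Leaving out any 1 of the 6 libraries ended that call, with adjusted p from 0.0502 to 0.13. PCSK7, which overlaps TAGLN, averaged 14.8 TPM in LV5-NID1 and 19.4 TPM in LV5. FAS, which overlaps ACTA2, averaged 10.2 TPM in LV5-NID1 and 13.2 TPM in LV5. The part of these overlapping genes in the values was not tested. ACTA2 was at 6.48, 6.75 and 5.69 TPM in LV5-NID1, against 5.77, 6.72 and 6.61 TPM in LV5, overlapping groups with a log2 fold change of -0.01 (95% interval -0.24 to 0.22, limma adjusted p = 0.941), whose sign changed to 0.03 with quantile normalization.

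PDGFRB was at 2.54, 0.96 and 2.49 TPM in LV5-NID1, against 3.80, 5.13 and 3.98 TPM in LV5. The groups did not overlap, as for 43.3% of all genes tested. Its log2 fold change of -0.87 (SE 0.255) did not pass (limma adjusted p = 0.0668), but did without LV5-NID1 replicate 3 (0.0448) or with a pseudocount of 5 (0.0479). CNN1 and PDGFRA were at or near 0 in all 6 libraries, THY1 was at 0.07 to 0.10 TPM in LV5-NID1 and 0.12 to 0.23 TPM in LV5, and DES was at 0.04 to 0.25 TPM in LV5-NID1 and 0.24 to 0.94 TPM in LV5. These 4 did not reach 1 TPM in 3 libraries and were not tested.

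The mean tropomyosin shares differed in LV5-NID1 as well. TPM1 made 13.2% of the summed tropomyosin TPM in LV5-NID1 and 16.2% in LV5, and TPM3 made 32.9% in LV5-NID1 and 27.8% in LV5. Neither share overlapped, as for the levels of 43.3% of all genes (exact two-sided permutation p = 0.1). TPM2 made 13.9% in LV5-NID1 and 15.7% in LV5 and overlapped (exact two-sided permutation p = 0.5). MYL9 made 8.65% of the 3 regulatory light chain genes in LV5-NID1 and 19.4% in LV5 (exact two-sided permutation p = 0.1). ACTA2 made 0.175% of the actins in LV5-NID1 and 0.128% in LV5 (exact two-sided permutation p = 0.1), while ACTB averaged 1930 ± 85.1 TPM in LV5-NID1 and 2855 ± 229 TPM in LV5 (limma adjusted p = 0.00714).

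Counts of related genes in the LV5 table are to be read beside 7.27% of all genes called higher and 9.32% called lower. Of 15 tested smooth muscle apparatus genes there, 0 were higher and 6 lower by limma (1 and 7 at an unadjusted p under 0.05, median log2 fold change -0.40). CSRP1 averaged 234 ± 5.47 TPM in LV5-NID1 and 386 ± 11.1 TPM in LV5 (limma adjusted p = 0.000976), PALLD, the actin-binding palladin, 46.6 ± 3.16 TPM in LV5-NID1 and 76.0 ± 1.96 TPM in LV5 (limma adjusted p = 0.00261), and CALD1 126 ± 3.53 TPM in LV5-NID1 and 174 ± 9.93 TPM in LV5 (limma adjusted p = 0.0065). Of 7 mesenchymal surface genes, 1 was higher and 2 lower. Of 12 SRF axis genes, 1 was higher and 2 lower, with CFL1 at 709 ± 24.3 TPM in LV5-NID1 and 974 ± 17.4 TPM in LV5 (limma adjusted p = 0.00308). Of 11 PDGF pathway genes, 3 were higher, PIK3R1 having passed the filter through LV5-NID1 alone, and 3 lower, among them PDGFA, a PDGF ligand, at 9.32 ± 0.93 TPM in LV5-NID1 and 16.1 ± 0.80 TPM in LV5 (limma adjusted p = 0.00617). The summed epithelial markers were 927 to 988 TPM in LV5-NID1 and 1633 to 1671 TPM in LV5, with EPCAM at 9.05 TPM in LV5-NID1 and 5.03 TPM in LV5, and CDH1 at 0.40 TPM in LV5-NID1 and 0.62 TPM in LV5; their part in these results was not tested.

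In SW480-LM3, TPM1 and MYL9 were lower than in SW480-P, as was TPM2 by less, and TAGLN was higher. Of 6 tested genes 1 was called higher and 3 lower by limma, beside 87.8% of 14527 genes called, 43.9% higher and 43.9% lower, so being called sets no gene apart in this comparison. The median log2 fold change of the 6 was -0.26, beside -0.004 over all genes. Levels are signal, which is not per length, so they are compared between groups and not between genes.

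TPM1 was at 54.6, 56.0 and 53.0 signal in SW480-LM3, against 204, 219 and 207 in SW480-P (log2 fold change -1.93, SE 0.044, limma adjusted p = 1.1e-14). MYL9 was at 18.03, 19.3 and 17.3 signal in SW480-LM3, against 34.95, 36.8 and 35.4 in SW480-P (log2 fold change -0.94, SE 0.073, limma adjusted p = 1.29e-08). TAGLN was at 13.2, 13.7 and 16.3 signal in SW480-LM3, against 4.70, 5.71 and 4.65 in SW480-P (log2 fold change 1.36, SE 0.12, limma adjusted p = 6.77e-08). For these 3 genes the groups were well separated, and groups did not overlap for 87.6% of all genes tested. Their calls held under all 17 alternatives, edgeR and DESeq2 on the recovered reads included. PCSK7, which overlaps TAGLN, averaged 69.2 signal in SW480-LM3 and 41.5 in SW480-P, and its part in the TAGLN values was not tested. TPM2 was at 151, 151 and 154 signal in SW480-LM3, against 189, 184 and 177 in SW480-P (log2 fold change -0.27, limma adjusted p = 1.11e-05), but scaling each library by its own total, which moves the median of all genes to 0.26, gave 0.02 for TPM2 (adjusted p = 0.68), and quantile normalization gave -0.06 (adjusted p = 0.144).

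The remaining genes were near the lower limit of the table. DES, the intermediate filament of muscle and of rodent stellate cells, had 27, 22 and 26 reads in SW480-LM3, against 9, 21 and 13 reads in SW480-P, and the groups did not overlap, as for 87.6% of all genes tested. Its log2 fold change was 0.34 (limma adjusted p = 0.0501, edgeR 0.125, DESeq2 0.229), and it was called without SW480-P replicate 2 (0.0154), without a variance trend (0.0272) and with library totals (0.00715). DES passed the filter on low values through SW480-LM3, where every library was at 1 signal or more. Of SW480-P, replicate 2 alone was. Those calls therefore carry no weight. PDGFRB was at 1.16, 1.46 and 0.98 signal in SW480-LM3, against 1.92, 1.11 and 1.83 in SW480-P, with overlapping groups (log2 fold change -0.24, limma adjusted p = 0.176, and -0.39 at 0.0314 without SW480-P replicate 2). ACTA2 had 5, 13 and 6 reads in SW480-LM3, against 11, 14 and 17 reads in SW480-P, and was not tested. FAS, which overlaps ACTA2, averaged 1.98 signal in SW480-LM3 and 20.4 in SW480-P, and its part in the ACTA2 reads was not tested.

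**Figure D5:**
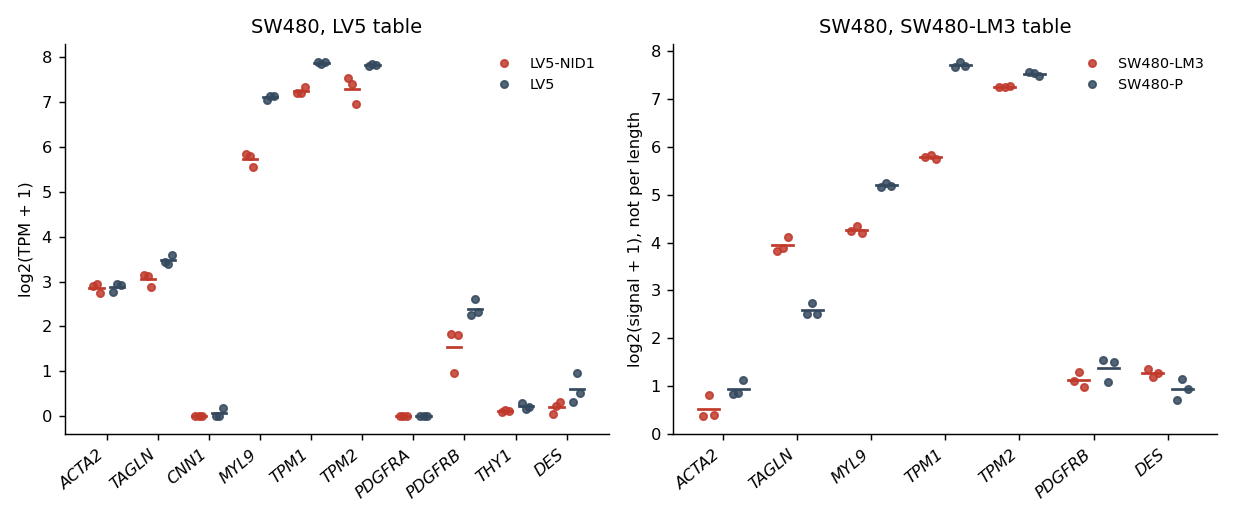
Levels of the myofibroblast genes in SW480, 1 point per library with group means as bars: log2(TPM + 1) in LV5-NID1 and LV5 (left), and log2(signal + 1), not scaled by length, in SW480-LM3 and SW480-P (right). MYL9 and TPM1 are lower in LV5-NID1 and in SW480-LM3 than in LV5 and SW480-P, and TAGLN is higher in SW480-LM3 than in SW480-P.

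Related genes in SW480-LM3 went both ways, to be read beside 43.9% of all genes called higher and 43.9% called lower. Of 12 tested paralogs 4 were higher and 8 lower, and of 15 smooth muscle apparatus genes 8 were higher and 7 lower. Of 10 mesenchymal surface genes 1 was higher and 9 lower, among them CD44 at 19.9 ± 2.90 signal in SW480-LM3 and 205 ± 1.99 in SW480-P (limma adjusted p = 1.09e-14). Of the genes counted lower, ACTC1 among the paralogs and NT5E and NCAM1 among the surface genes passed the filter through SW480-P alone. The non-muscle myosin heavy chains were higher, MYH9 at 1272 ± 48.9 signal in SW480-LM3 and 132 ± 11 in SW480-P (limma adjusted p = 2.18e-16) and MYH10 at 309.5 ± 4.03 in SW480-LM3 and 10.01 ± 0.72 in SW480-P (limma adjusted p = 2.5e-17). ACTB and ACTG1 were higher as well, at log2 fold changes of 0.93 and 1.46, while MYL6, the essential myosin light chain, was lower at -1.87. CALD1 was lower at 149.8 ± 2.75 signal in SW480-LM3 and 296 ± 2.1 in SW480-P (limma adjusted p = 1.02e-12), and MYLK at 1.16 ± 0.23 in SW480-LM3 and 10.8 ± 1.01 in SW480-P (limma adjusted p = 2.32e-10), both chosen after their values were seen. Of 11 PDGF pathway genes 8 were higher and 3 lower, with PDGFA at 112 ± 5.51 signal in SW480-LM3 and 21.5 ± 0.45 in SW480-P (limma adjusted p = 1.9e-14). Epithelial markers summed to 13159 to 13870 signal in SW480-LM3 and 3507 to 3770 in SW480-P, CDH1 standing at 148 ± 6.50 in SW480-LM3 and 1.67 ± 0.49 in SW480-P; their part in these results was not tested.

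Of the 10 genes, TPM1 was called lower in all 3 comparisons, each with its own libraries. It was not alone in this: among the related genes and markers, TPM4, CALD1, MYLK, EGR1, ITGB1 and CD68 were also called lower in all 3. Of all genes tested, 24.6% were called lower in LX-2, 43.9% in SW480-LM3 and 9.32% in LV5-NID1. The share of all genes called lower in all 3 was not counted, so whether this sets TPM1 apart cannot be told. The difference between comparisons was not tested, since the tables differ in unit and no joint model was fitted. Side by side and untested, both lines carried TPM1, TPM2 and MYL9 at high levels (739, 349 and 197 TPM in EV-XP-LX-2, 233, 225 and 136 TPM in LV5), whereas TAGLN was at 286 TPM in EV-XP-LX-2 and 10.1 TPM in LV5, and THY1 at 50.3 TPM in EV-XP-LX-2 and 0.17 TPM in LV5.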

How the data were processed

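RNA was measured in 18 libraries from LX-2 and SW480 cells. Per the labels' protocols, total RNA was selected with oligo(dT) beads, fragmented and reverse transcribed with random hexamers; whether strand was kept is not stated. The submitters' processing notes name HISAT2 2.1.0 and Bowtie2 2.3.5 without a role; the counting tool, the annotation and the genome build were not given in the sources used here. The authors deposited TPM for the LX-2 and LV5 groups (depth unknown, so no counting interval is given) and a signal for SW480-LM3 and SW480-P. This deposited signal was taken as a read count divided by 1 factor per library. Of the lower values, on which the factor was fitted, 100% were whole reads within 0.1 read. Higher values were not checked in this way. The recovered reads served edgeR 4.0.16 (quasi-likelihood test) and DESeq2 1.42.0 as alternatives.

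Each table was fitted alone, all genes together, with limma 3.58.1 (variance trend) in R 4.3.3 on log2(value + 1), keeping genes with a value of 1 or more in 3 or more libraries, with Benjamini-Hochberg adjustment over all genes and a threshold of 0.05. Fold changes on this scale understate low genes. Shares within gene families were compared with an exact two-sided permutation test. The fit was tested on simulated data with known changes. The 10 genes and all lists were chosen with earlier results of these data known. In LX-2, the text names of each list the 2 genes with the smallest adjusted p and the 2 with the highest mean. For the SW480 comparisons only some of the genes under this rule are named, so those named are a selection. Some others are marked as chosen after their values were seen, or are all the listed genes that meet a condition stated beside them. The rest followed no rule, among them LRAT, GFAP, HGF and MYH11 in LX-2 and EPCAM and CDH1 in LV5-NID1. Gene positions are from GENCODE 29 (GRCh38), matched by identifier. Alternatives were quantile and median-ratio scaling, scaling without mitochondrially encoded genes, no low filter or a mean of 5 and above, pseudocounts of 0.1 and 5, a fit with no trend, a replicate block, and leaving out each library; library-total scaling was added after the data were seen.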

Additional observations from a re-analysis of the deposited data

How the results depend on the processing

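Calls and directions of TPM1 in all 3 comparisons, PDGFRB and PDGFRA in LX-2 and MYL9 in both SW480 comparisons held in every alternative that tested them. The number of myofibroblast genes called higher in LX-2 was 1, against 3 with median-ratio scaling, 0 with a mean of at least 5, and 1 to 3 when a library was left out. In SW480-LM3 it was 1, against 2 without a variance trend, 2 with library-total scaling and 1 to 2 when a library was left out. In LV5-NID1 the 1127 genes called higher became 521 with no low filter, 233 with a replicate block and 185 to 1299 when a library was left out, and the 1445 called lower became 657 with the block and 494 to 2026. Without LV5-NID1 replicate 3, 3325 genes were called in all, and without LV5 replicate 1, 713. Of the called genes in LV5-NID1, 43.8% were higher, 54.7% with quantile normalization; in SW480-LM3, 50%, 58.9% with library-total scaling. Signs turned, with no call in either, for TAGLN in LX-2 (-0.035, quantile), VCL in LX-2 (-0.009, without mitochondrially encoded genes), PLCG1 in LX-2 (0.050 with median-ratio scaling, and -0.036 to 0.041 when a library was left out, positive without replicate 2 of either group), CD14 in LX-2 (-0.396 to 0.086 when a library was left out, positive without replicate 2 of EV-XP-NID1-LX-2) and ACTA2 in LV5-NID1 (0.032 quantile, and -0.072 to 0.050 when a library was left out). In SW480-LM3 the called falls of TPM2 (0.017, library-total) and PTPN11 (0.047 quantile, 0.060 library-total) turned. The causes were not tested. Libraries of unlike groups with the same number deviated together at -0.047 to 0.063, not every library best with its own number, so numbers were not read as pairs; the replicate block ended the calls of CNN1 in LX-2 and TAGLN in LV5-NID1 and of no other myofibroblast gene. Depth limits ACTA2, DES and PDGFRB in SW480-LM3, at 5 to 27 reads for the first 2.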
